A study of Homo sapiens with 12 samples.

Results

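Epithelial and mesenchymal identity in prostate cancer cells was followed through 10 genes in the RNA-Seq libraries of 2 experiments on MUC1-C, the transmembrane subunit of the mucin MUC1. The genes were chosen by symbol, and all 10 were found, among 28008 genes listed for the silencing experiment and among 25435 listed for the overexpression experiment. Of these, 6 mark epithelial cells (CDH1, EPCAM, KRT8, KRT18, ESRP1 and GRHL2) and 4 mark mesenchymal cells (VIM, CDH2, ZEB1 and FN1).

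LNCaP is a prostate cancer line that is commonly used as a model of luminal cells, and LNCaP-ER cells were derived from it by continuous exposure to enzalutamide (ENZ), a hormone-directed drug against prostate cancer. In the silencing experiment, LNCaP-ER cells that carried a MUC1 shRNA in a tetracycline-inducible, puromycin-selected lentiviral vector received DMSO as the vehicle or 500 ng/ml doxycycline (DOX) for 7 days. Both arms therefore shared the resistant line, the vector and the selection, and no arm that received DOX with a control shRNA was analysed here, so an effect of DOX itself cannot be told apart from one of the shRNA. In the overexpression experiment, the reference was LNCaP and the test group LNCaP/MUC1-C OE, whose labels carry the terms sh and tetMUC1-C. The controls are labelled wild-type, while the deposited columns are named vector, so whether they held an empty vector is not settled. Each of the 4 groups had 3 libraries, made from triplicate cultures of a single line, and p-values measure the spread between such cultures.

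In epithelial cells, E-cadherin (CDH1) joins neighbours at adherens junctions, EpCAM is an adhesion molecule of the cell surface, and KRT8 pairs with KRT18 to build the keratin filaments of simple and luminal epithelia. ESRP1, a splicing regulator, and GRHL2, a transcription factor, maintain the epithelial program. In the epithelial-mesenchymal transition (EMT), transcription factors such as ZEB1 repress these genes, vimentin (VIM) filaments and N-cadherin (CDH2) take over from keratins and E-cadherin, and fibronectin (FN1) is laid down in the matrix. LNCaP cells are known as an epithelial line with E-cadherin and little vimentin.

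The libraries held 28045894 to 45807989 counts in the silencing experiment and 13806856 to 19208944 in the overexpression experiment. MUC1, the targeted gene, was counted 26, 10 and 13 times in the vehicle libraries and 3, 42 and 8 times in those labelled DOX. Replicate 2 of those labelled DOX had more MUC1 counts than any vehicle library, against its label, and it also stood apart in its genes at 0 counts, which were 11.2% of those listed against 28.0% to 38.1% in the other 5. The libraries are therefore named by their labels, and values without that library are given beside the main results of this experiment. Vehicle replicate 1 also differed from its group, by a chi-square of counts per degree of freedom. This was 51.8 and 51.4 against vehicle replicates 2 and 3, which gave 5.70 with each other, and 26.9 to 69.1 between libraries labelled DOX. In the overexpression experiment, LNCaP replicates 1, 2 and 3 had 30, 25 and 31 MUC1 counts, and the libraries labelled LNCaP/MUC1-C OE had 9168, 9959 and 12622.

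Luminal prostate markers were checked next, since the identity genes were to be read against the labelled line. In LNCaP-ER vehicle libraries 8 such markers added up to 6155 to 6431 CPM, that is, counts scaled to a library total of 1000000. In the libraries labelled LNCaP their sum was 161 to 175 CPM, and in those labelled LNCaP/MUC1-C OE it was 47.4 to 49.4 CPM. KLK3, which encodes prostate-specific antigen, was at 138 ± 13.0 CPM (SD, n = 3) in vehicle LNCaP-ER libraries and at 24.8 ± 1.67 CPM (SD, n = 3) in those labelled LNCaP, and it had 0 counts in every library labelled LNCaP/MUC1-C OE. The defining luminal genes were thus low in the overexpression experiment, in controls as well as in MUC1-C OE libraries, and the 2 groups of this experiment are also named by their labels. In bulk RNA, fewer cells of a type and less RNA per cell cannot be told apart.

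The identity genes stood at different levels in the 2 tables, the epithelial ones mostly higher in LNCaP-ER and the mesenchymal ones mostly higher in LNCaP libraries. Among epithelial genes, CDH1 was counted at 764, 804 and 778 CPM in vehicle replicates 1, 2 and 3, and at 23.9, 24.2 and 20.4 CPM in the libraries labelled LNCaP. Their mean in the latter was 2.92% of that in vehicle LNCaP-ER libraries. For EPCAM this share was 2.97%, for GRHL2 1.88% and for ESRP1 0.548%. The keratins did not share this difference, since KRT18 stood at 43.0% and KRT8 at 114% of the vehicle level in CPM. The median over the 6 epithelial genes was 2.95%, beside 2.73% over the 8 luminal markers, which ranged from 0.519% for FOLH1 to 18.0% for KLK3.

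By CPM, mesenchymal genes were higher in the libraries labelled LNCaP, with the exception of FN1. VIM was at 4.68, 4.92 and 5.90 CPM in the vehicle libraries and at 508, 457 and 469 CPM in those labelled LNCaP, a 92.5-fold difference in means. ZEB1 had 14, 6 and 3 counts in the vehicle libraries and 777, 696 and 784 counts in those labelled LNCaP, which is 181-fold more in CPM. CDH2 had 0 counts in every vehicle library, which allows up to 0.0308 CPM over the group by a limit of 3 counts, and 119, 121 and 124 CPM in the libraries labelled LNCaP. FN1 was at 52.0% of its vehicle level in CPM, an order that was reversed per length, as given below. The 10 transcription factors of EMT other than ZEB1 added up to 8.28 to 11.5 CPM in vehicle libraries and to 129 to 138 CPM in those labelled LNCaP. Most of the latter came from TCF4 (60.9 to 64.6 CPM) and ZEB2 (49.1 to 55.1 CPM), whereas SNAI2 stood at 98.8% and SNAI1 at 52.5% of the vehicle level. The low CDH1 and high VIM of the libraries labelled LNCaP go against that label, since LNCaP is known for E-cadherin and little vimentin. Whether these libraries came from LNCaP cells was not tested. The tables were counted separately and the experiments hold no group in common, so these levels were set side by side without a test. A difference between the lines cannot be told apart from one between the experiments or from one in the cells that were used.

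**Figure D1:**
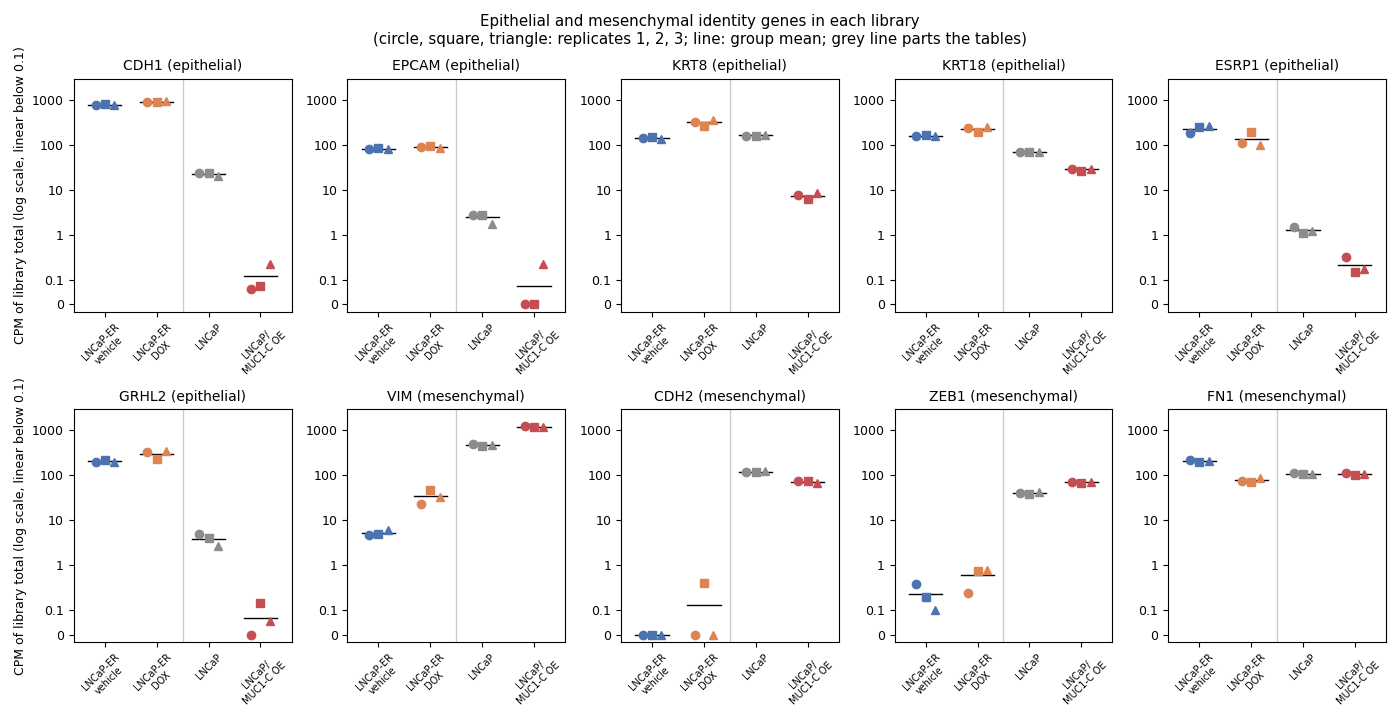
Level of each of the 10 genes in each library as CPM of the library total, on a log axis that is linear below 0.1, for LNCaP-ER vehicle, LNCaP-ER DOX, LNCaP and LNCaP/MUC1-C OE libraries (3 each, by label). Symbols are replicates, black lines are group means, and a grey line parts the 2 tables. CDH1 lies at 764 CPM or more in every LNCaP-ER library and at 24.2 CPM or less in the others, while VIM lies at 46.4 CPM or less in LNCaP-ER libraries and at 457 CPM or more in the others.

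**Figure D2:**
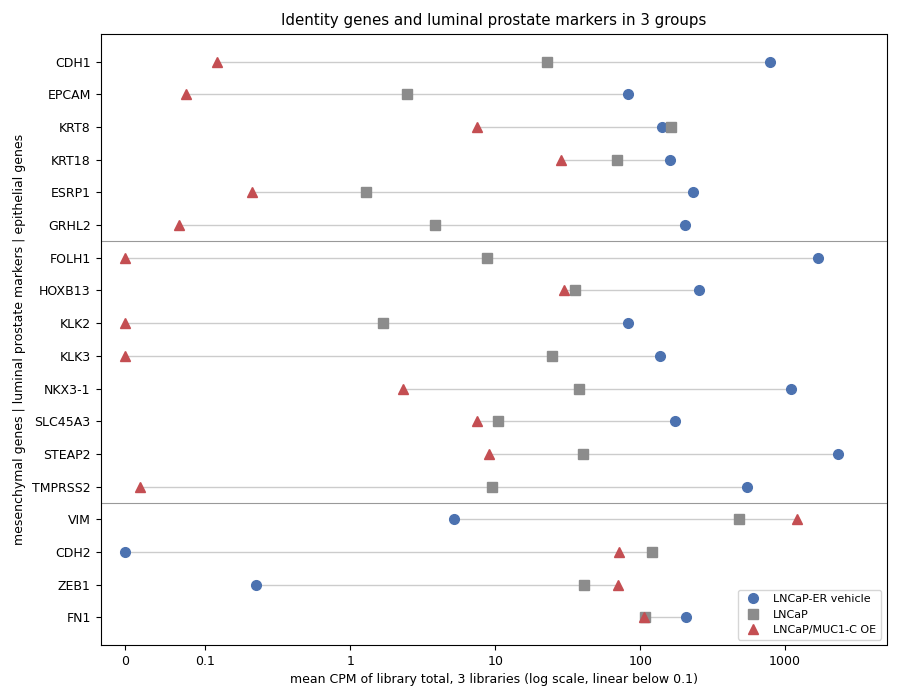
Mean CPM of the library total over 3 libraries, on a log axis that is linear below 0.1, of the 6 epithelial genes, 8 luminal prostate markers and 4 mesenchymal genes in LNCaP-ER vehicle, LNCaP and LNCaP/MUC1-C OE libraries. Except for KRT8, the epithelial and luminal genes have their highest mean CPM in LNCaP-ER vehicle libraries, and VIM, CDH2 and ZEB1 their lowest.

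Within a library, levels can be set in order only per length. By the deposited TPM of the vehicle libraries, a level that is scaled by gene length, the order was CDH1 (104 ± 11.1), KRT18 (79.6 ± 8.19), KRT8 (44.3 ± 5.70), ESRP1 (40.1 ± 4.07), EPCAM (35.4 ± 3.69), GRHL2 (25.0 ± 2.99), FN1 (14.6 ± 2.11), VIM (1.65 ± 0.0597) and ZEB1 (0.0190 ± 0.0136), each as TPM with SD over 3 libraries, with CDH2 at 0. The order of KRT8 and ESRP1 and that of ESRP1 and EPCAM differed between vehicle libraries, so these neighbours could not be ranked, while KRT8 lay above EPCAM in each of them. For the overexpression table, levels per length were computed from the lengths that counts and TPM imply in the silencing tables, for 20512 genes that held 96.9% to 97.1% of the counts. In the libraries labelled LNCaP, VIM led with 556 ± 34.4 (SD, n = 3) on this scale, followed by KRT8 (182 ± 2.61), KRT18 (123 ± 1.72), CDH2 (64.5 ± 1.33), FN1 (27.3 ± 0.874), ZEB1 (11.8 ± 0.694) and CDH1 (11 ± 0.987), with EPCAM, GRHL2 and ESRP1 below. The order of ZEB1 and CDH1 differed between these libraries. In those labelled LNCaP/MUC1-C OE, VIM stood at 1366 ± 44.7 (SD, n = 3) and was followed by KRT18 (49.0 ± 2.95), CDH2 (37.0 ± 1.49), FN1 (26.1 ± 0.979), ZEB1 (19.8 ± 0.273) and KRT8 (8.10 ± 1.12). VIM was thus the most abundant of the 10 transcripts per length in both groups of the overexpression experiment and lay below all but ZEB1 and CDH2 in the vehicle libraries. Differences between the tables depended on the scale. Relative to vehicle libraries, each identity gene counted in both groups stood higher per length than in CPM in the libraries labelled LNCaP. FN1 (14.6 against 27.3) and KRT18 (79.6 against 123) were higher in the libraries labelled LNCaP than in vehicle libraries, the reverse of CPM. KRT8 (44.3 against 182) and VIM (1.65 against 556) were higher by more than in CPM. CDH1 (104 against 11) and EPCAM (35.4 against 3.78) stayed lower, by less than in CPM. The shares and folds between the tables given above therefore hold for CPM only.

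The position of these genes in GRCh38, the build that the submitters' processing notes name, was taken from GENCODE v29. CDH1 lies on chromosome 16 (68737225 to 68835548, plus strand), EPCAM on chromosome 2 (47345158 to 47387601, plus strand), and FN1 also on chromosome 2 (215360440 to 215436172, minus strand). VIM (17228259 to 17237593) and ZEB1 (31318495 to 31529814) lie on the plus strand of chromosome 10. KRT18 (52948871 to 52952901, plus strand) and KRT8 (52897187 to 52949954, minus strand) are neighbours on chromosome 12, and their annotated spans overlap by 1084 bases. VIM shares 1727 bases with VIM-AS1 and ZEB1 shares 1953 bases with ZEB1-AS1, both on the opposite strand. The library kit keeps the strand, but whether the counting used it is not given in the sources used here, so reads in these overlaps are uncertain. KRT8 and KRT18 have 52 and 68 pseudogenes in RefSeq, of which 1 each is listed in the silencing table, and how reads shared with such copies were assigned is not stated either.

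Promoter windows from RefSeq (GRCh38.p14), which had an entry for 5 of the 10 genes, are shown for VIM and ZEB1, which were higher in the libraries labelled LNCaP/MUC1-C OE, and for FN1, which moved against VIM in the silencing experiment. Each runs 5′ to 3′ toward the start of the gene. Capitals mark matches to motifs searched on both strands, namely the E-box CAGGTG or CACCTG, a sequence that ZEB and SNAI factors bind, the GC box GGGCGG or CCGCCC, the CCAAT box CCAAT or ATTGG, and the cAMP response element TGACGTCA, which overlaps none of the others. The motifs other than the E-box were chosen after values had been seen. The VIM window is chr10:17227991-17228240 (plus strand), the ZEB1 window chr10:31318167-31318416 (plus strand) and the FN1 window chr2:215436173-215436318 (minus strand).
VIM: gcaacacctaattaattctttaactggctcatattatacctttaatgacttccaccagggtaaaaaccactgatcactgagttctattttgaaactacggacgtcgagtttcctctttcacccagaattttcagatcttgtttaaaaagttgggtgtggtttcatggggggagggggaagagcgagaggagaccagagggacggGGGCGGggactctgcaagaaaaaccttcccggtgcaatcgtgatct
ZEB1: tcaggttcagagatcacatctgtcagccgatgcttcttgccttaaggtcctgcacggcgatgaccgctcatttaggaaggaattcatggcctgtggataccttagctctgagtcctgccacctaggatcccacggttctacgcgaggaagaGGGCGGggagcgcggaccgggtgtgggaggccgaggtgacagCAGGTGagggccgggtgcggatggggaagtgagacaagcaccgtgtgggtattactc
FN1: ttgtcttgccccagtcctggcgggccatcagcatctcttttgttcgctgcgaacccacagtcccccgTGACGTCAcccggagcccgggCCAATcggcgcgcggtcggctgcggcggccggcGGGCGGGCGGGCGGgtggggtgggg
The FN1 window held 3 overlapping GC boxes, 1 CCAAT box and 1 cAMP response element. The VIM window held 1 GC box, and the ZEB1 window held 1 GC box and 1 E-box. Over all 35116 promoters in the RefSeq table, windows of 250 bases held a GC box in 42.6%, an E-box in 17.5%, a CCAAT box in 32.0% and a cAMP response element in 1.65%, and windows of 146 bases in 25.1%, 11.3%, 18.3% and 0.421%. A match describes the letters of these windows and is not evidence of binding.

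The silencing experiment compared libraries labelled DOX with vehicle libraries of LNCaP-ER cells, between which MUC1 RNA was not lower by group. By edgeR's quasi-likelihood test, adjusted over 14683 genes by the Benjamini-Hochberg method, 5 of the 9 identity genes tested changed, with KRT8, KRT18 and VIM higher and ESRP1 and FN1 lower in the libraries labelled DOX. Of all genes tested, 27.3% passed the same threshold of an adjusted p under 0.05, with 12.8% higher and 14.5% lower. The changes therefore took no single direction in either class, since a mesenchymal and 2 epithelial genes rose while 1 of each fell. The groups did not overlap in TMM-normalized CPM for 6 of the 9 genes, against 44.3% of all genes tested, with 21.2% higher and 23% lower.

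KRT8, the type II keratin of simple epithelia, rose. It was at 141, 149 and 137 CPM in vehicle replicates 1, 2 and 3, and at 329, 261 and 368 CPM in the libraries labelled DOX. All 3 libraries labelled DOX lay above all vehicle libraries, with the lowest value in replicate 2. The increase was 1.10 on the log2 scale (standard error 0.14, adjusted p = 0.00134 by edgeR's quasi-likelihood test). KRT18, its type I partner, was at 155, 170 and 161 CPM in vehicle libraries and at 238, 195 and 252 CPM in those labelled DOX. Here too the groups did not overlap, and the library labelled DOX replicate 2 was again the lowest of its group. KRT18 rose by 0.43 on the log2 scale (standard error 0.13, adjusted p = 0.0338 by edgeR's quasi-likelihood test). The KRT18 call was lost on leaving out any single library other than the one labelled DOX replicate 2 (adjusted p = 0.0796 to 0.144 over these 5 fits), and without that library the log2 fold change was 0.58 (adjusted p = 0.00227).

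CDH1 and EPCAM, the adhesion molecules of the epithelial surface, did not pass the test. CDH1 was at 921, 931 and 944 CPM in the libraries labelled DOX, all above the vehicle libraries, with a log2 fold change of 0.18 (95% interval -0.04 to 0.40, adjusted p = 0.192). EPCAM was at 80.6, 84.4 and 82.3 CPM in vehicle libraries and at 91.9, 94.9 and 84.3 CPM in those labelled DOX, where the groups overlapped. Its log2 fold change was 0.06 (95% interval -0.14 to 0.26, adjusted p = 0.657). A change of either gene by more than 0.40 on the log2 scale lay outside these intervals. Without the library labelled DOX replicate 2, the same test gave 0.24 for CDH1 (adjusted p = 0.0933) and 0.08 for EPCAM (adjusted p = 0.539). On the deposited TPM, where the median gene lay 0.45 higher on the log2(TPM + 1) scale, CDH1 and EPCAM were called higher with differences of 0.73 and 0.60.

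The 2 regulators of the epithelial program went different ways. ESRP1 was at 183, 250 and 265 CPM in vehicle libraries and at 114, 191 and 101 CPM in those labelled DOX. The highest value labelled DOX, in replicate 2, lay above the lowest vehicle value on this scale, whereas the groups did not overlap after TMM normalization. ESRP1 fell by 0.87 on the log2 scale (standard error 0.23, adjusted p = 0.0242 by edgeR's quasi-likelihood test), and without the library labelled DOX replicate 2 by 1.14 (adjusted p = 0.00233). The call was lost without vehicle replicate 2 or 3 and without DOX replicate 1 or 3 (adjusted p = 0.0755 to 0.0920). GRHL2 was at 193, 221 and 198 CPM in vehicle libraries and at 324, 225 and 341 CPM in those labelled DOX, with replicate 2 near the vehicle level. Its log2 fold change was 0.47 (95% interval 0.09 to 0.85, adjusted p = 0.0658), and the test was passed without the library labelled DOX replicate 2 (0.69, adjusted p = 0.00150).

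VIM, the intermediate filament of mesenchymal cells, had the largest increase of the 9 genes tested in this experiment. It was counted 174, 151 and 174 times in vehicle libraries and 764, 1300 and 1472 times in those labelled DOX, or 23.2, 46.4 and 32.1 CPM against 4.68, 4.92 and 5.90 CPM. All libraries labelled DOX lay above the vehicle libraries, with the highest CPM in replicate 2. The increase was 2.63 on the log2 scale (standard error 0.24, adjusted p = 4.45e-04 by edgeR's quasi-likelihood test), which ranked 114 among the increases of all genes, and it was 2.41 (adjusted p = 1.17e-04) without that library. The level reached stayed far under that of the overexpression table, since the highest library labelled DOX had 46.4 CPM and the lowest labelled LNCaP had 457 CPM. VIM-AS1, on the other strand, had 0.691 ± 0.234 CPM (SD, n = 3) in vehicle libraries and 1.52 ± 0.429 CPM (SD, n = 3) in those labelled DOX and did not pass the test (log2 fold change 1.05, adjusted p = 0.125).

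FN1, the matrix protein fibronectin, moved against VIM. It was at 215, 200 and 203 CPM in vehicle replicates 1, 2 and 3, and at 76.0, 70.1 and 88.9 CPM in the libraries labelled DOX. The groups were far apart and each was tight. FN1 fell by 1.46 on the log2 scale (standard error 0.11, adjusted p = 2.17e-04 by edgeR's quasi-likelihood test), and by 1.33 (adjusted p = 9.67e-05) without the library labelled DOX replicate 2.

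ZEB1 and CDH2 stayed near the floor of detection. ZEB1, the repressor of epithelial genes, was counted 14, 6 and 3 times in vehicle libraries and 8, 21 and 35 times in those labelled DOX, with overlap between the groups. Its log2 fold change of 1.28 had a 95% interval of -0.28 to 2.84 (adjusted p = 0.199), so a change of either sign could not be resolved. ZEB1 passed under none of the 12 alternatives that tested it, the fit without the library labelled DOX replicate 2 among them. Counting error alone gave a narrower range, with a vehicle over DOX ratio of 0.394 (95% counting interval 0.234 to 0.644). The spread between libraries of a group thus left the sign open. CDH2 was counted 0 times in every library of this experiment except for 11 counts in the library labelled DOX replicate 2, and it was not tested because it did not pass the filter on low counts. The 12 markers of stromal, blood and vessel cells included 11 above 3 counts in that library, against 3 to 7 in the other 5, and their summed level was 9.84 to 12.4 CPM in vehicle libraries and 25.5 to 36.6 CPM in those labelled DOX. Most of that difference came from CD68 (6.44 against 22.3 CPM), a lysosomal protein gene of macrophages that other cells also express and the only marker of 3 tested to pass. The part of these markers in the identity genes' values was not tested.

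**Figure D3:**
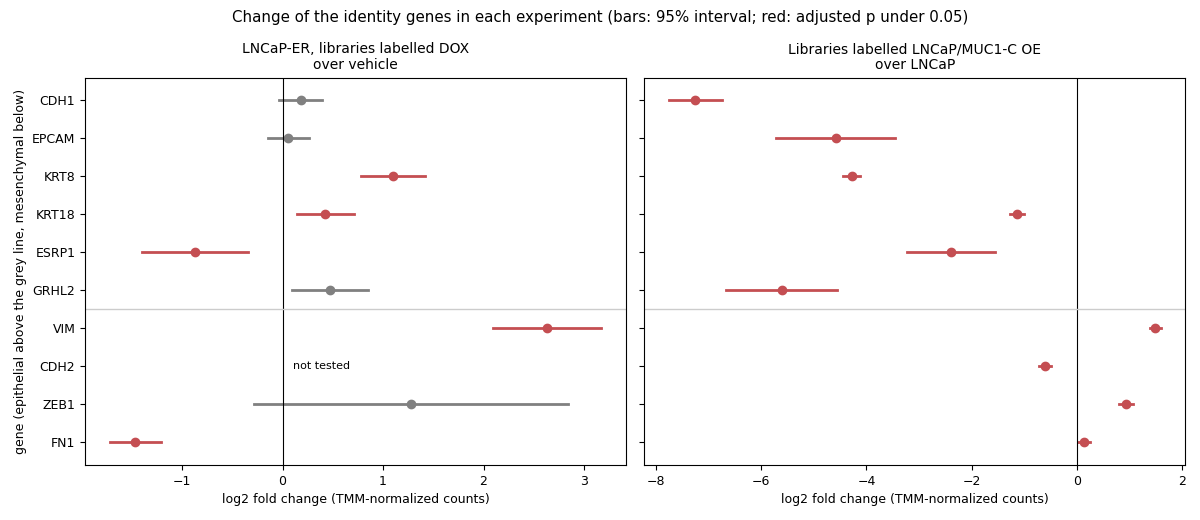
Log2 fold change of the 10 genes (points) with 95% intervals (bars) from edgeR's quasi-likelihood fit, for libraries labelled DOX over vehicle (left) and for libraries labelled LNCaP/MUC1-C OE over LNCaP (right), with separate horizontal scales. Red marks an adjusted p under 0.05, and CDH2 was not tested on the left. On the left VIM (2.63) and FN1 (-1.46) lie at the ends, and on the right all 6 epithelial genes lie below 0, from -7.26 for CDH1 to -1.13 for KRT18. FN1 on the right, at 0.14, is -0.02 when scaled by library size only.

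**Figure D4:**
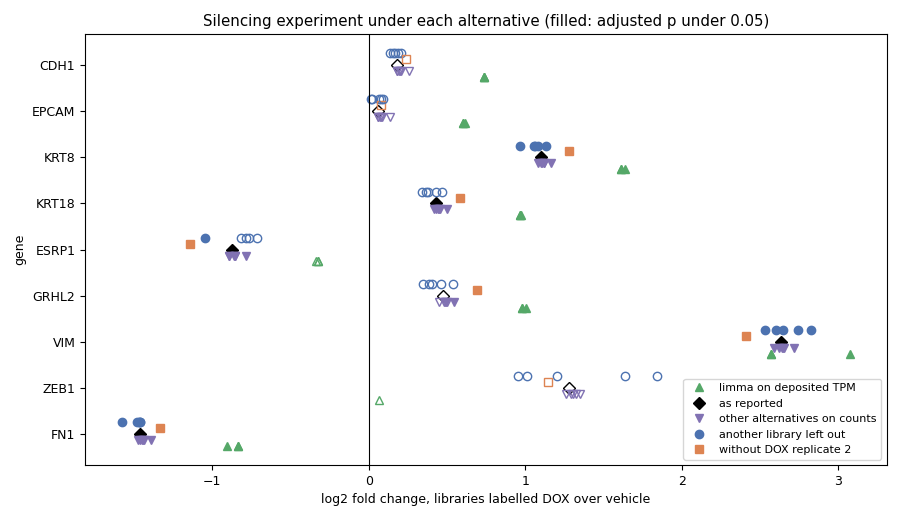
Log2 fold change of 9 genes in the silencing experiment as reported and under each alternative, with filled symbols for an adjusted p under 0.05. KRT8, VIM and FN1 stay filled throughout, KRT18 and ESRP1 open when single libraries are left out, and GRHL2 is filled without the library labelled DOX replicate 2. The TPM values (green) lie to the right of the counts for the 6 epithelial genes and FN1, where the median of all genes was shifted by 0.45.

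The wider epithelial program was followed through lists of other genes, to place these 10 among them. Of 25 other genes of epithelial junctions tested, 10 rose and 2 fell in the libraries labelled DOX, where 12.8% of all genes rose and 14.5% fell. Their median was 0.32 on the log2 scale, against -0.02 over all genes. CLDN4, a tight junction claudin, rose by 1.26 from 99.1 to 237 CPM, and CGN, which encodes cingulin at the cytoplasmic face of tight junctions, rose by 1.23. CTNND1, the p120 catenin that binds E-cadherin, rose by 1.39 from a low 2.38 CPM. The 2 that fell were the desmosomal cadherins DSG2 (-0.93) and DSC2 (-0.49). Of 16 genes of the epithelial surface and of trafficking, 8 rose and 0 fell by edgeR's test, among them MYO5B (0.72), LSR (0.68) and SPINT1 (0.66), with a median of 0.29. At an unadjusted p under 0.05, 9 were higher and 3 lower, and by DESeq2 8 rose and 1 fell. PRSS8 had the lowest value at -0.58 and did not pass. These counts depended on single libraries. Without the library labelled DOX replicate 2, 13 junction genes rose and 2 fell, and 8 surface genes rose and 1 fell. Without vehicle replicate 2, vehicle replicate 3 or DOX replicate 3, 6, 5 and 5 junction genes rose and 1 fell, and surface genes that rose numbered 4 or 5 in each of the 5 fits that kept DOX replicate 2.

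The other regulators of epithelial identity showed no common direction. Of 11 tested, ELF3 rose (0.99) while FOXA1 (-0.59), a pioneer factor of luminal cells, and KLF4 (-0.73) fell, and the median was 0.04. Neither decrease held without vehicle replicate 2 or 3 or DOX replicate 1 or 3, and 2 rose and 2 fell without DOX replicate 2. ESRP2, the paralog of ESRP1, had a value of 0.18 and did not pass. Of the other keratins, 3 of 9 were tested and KRT19 rose by 2.12 from 0.879 to 3.78 CPM, a call that was lost without DOX replicate 3. All 9 were above 3 counts in the library labelled DOX replicate 2, against 3 to 5 in the others. Of 8 luminal markers tested, KLK2 (1.41), KLK3 (1.18), TMPRSS2 (0.84) and SLC45A3 (0.69) rose, and the other 4 did not pass. In each fit that left out a library 4 rose, and without DOX replicate 2 another 1 fell.

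On the mesenchymal side, 4 of 10 EMT transcription factors other than ZEB1 were tested, and only SNAI1, which encodes Snail, passed, at 0.94 lower on the log2 scale from 4.02 to 2.09 CPM. This call was lost without vehicle replicate 2, vehicle replicate 3 or DOX replicate 3, and 2 factors fell without DOX replicate 2. Their summed level was 7.92 to 9.72 CPM in the libraries labelled DOX and 8.28 to 11.5 CPM in the vehicle libraries, with overlap. Of 17 genes of mesenchymal matrix and cytoskeleton, 4 rose and 0 fell by edgeR's test, where 12.8% of all genes rose and 14.5% fell. Their median was 0.24, and the share called in either direction was under the 27.3% of all genes. Those that rose were TAGLN (1.20) and ACTA2 (0.77), which encode contractile proteins, COL6A1 (0.41) and the integrin subunit ITGAV (0.37). At an unadjusted p under 0.05, 8 were higher and 3 lower, and by DESeq2 6 rose and 0 fell of 32 tested. Without the library labelled DOX replicate 2, 6 rose and 4 fell of 18 tested, while 1 rose without vehicle replicate 2 or 3, 2 without DOX replicate 1 and 0 without DOX replicate 3. Of 16 genes of TGF-beta signaling, an inducer of EMT, 4 rose and 3 fell, beside 12.8% and 14.5% of all genes. ID1 (2.89), ID2 (2.08) and SMAD7 (1.10), which are targets of this family of ligands, were among the former, although the groups overlapped for ID1 and ID2. The latter were the co-receptor TGFBR3 (-1.15) and the signal transducers SMAD2 (-0.54) and SMAD4 (-0.52). These counts depended on single libraries, since 0 rose without vehicle replicate 2 or 3 or DOX replicate 1 or 3 and 1 without vehicle replicate 1, whereas 6 rose and 4 fell without DOX replicate 2.

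The overexpression experiment compared LNCaP/MUC1-C OE with LNCaP libraries. All 10 identity genes passed the same test over 13836 genes, 7 lower and 3 higher, in an experiment in which 67.3% of all genes tested passed, with 34.1% lower and 33.2% higher. The 6 epithelial genes were all lower in the libraries labelled LNCaP/MUC1-C OE, and of the mesenchymal genes VIM, ZEB1 and FN1 were higher and CDH2 lower, although FN1 lost its direction when scaled by library size only. CDH1, EPCAM, ESRP1 and GRHL2 reached the minimum of the low-count filter, 0.562 CPM, in no library labelled LNCaP/MUC1-C OE and were tested through the LNCaP libraries, so that their count carries little by itself. Groups of all 10 genes did not overlap in TMM-normalized CPM, against 70.3% of all genes tested, with 35.9% lower and 34.4% higher.

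CDH1, the adherens junction cadherin, was near the limit of detection in the libraries labelled LNCaP/MUC1-C OE. LNCaP replicates 1, 2 and 3 held 460, 436 and 373 counts of CDH1, and the libraries labelled LNCaP/MUC1-C OE held 1, 1 and 4. Relative to library totals, the LNCaP group held 179 times more, with a 95% counting interval of 82.1 to 489 that covers counting error only. CDH1 fell by 7.26 on the log2 scale (standard error 0.24, adjusted p = 5.96e-14 by edgeR's quasi-likelihood test). The size of this decrease rests on few counts in the libraries labelled LNCaP/MUC1-C OE, so it was not ranked among all genes. GRHL2 had 94, 72 and 48 counts in the LNCaP libraries and 0, 2 and 1 in the others, a ratio of 60.5 (20.4 to 296) and a log2 fold change of -5.62 (adjusted p = 2.88e-08). EPCAM had 54, 50 and 32 counts against 0, 0 and 4, a ratio of 28.8 (11 to 107) and a log2 fold change of -4.59 (adjusted p = 9.52e-07). ESRP1 had 29, 20 and 22 counts against 5, 2 and 3, a ratio of 6.02 (3.09 to 13.1) and a log2 fold change of -2.40 (adjusted p = 4.00e-05). The 3 genes were low in the LNCaP libraries already, so their ratios rest on few counts. All 4 EPCAM counts of the libraries labelled LNCaP/MUC1-C OE lay in replicate 3, and without it the fitted log2 fold change was -8.33 for EPCAM, against 0 counts, and -8.09 for CDH1, so that the order of these decreases rests on that library.

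The keratins were abundant enough to be measured in both groups. KRT8 was at 162, 162 and 164 CPM in the LNCaP libraries and at 7.67, 6.30 and 8.42 CPM in those labelled LNCaP/MUC1-C OE, far apart and tight. KRT8 fell by 4.28 on the log2 scale (standard error 0.08, adjusted p = 2.84e-17). KRT18 was at 69.4, 71.0 and 68.3 CPM against 29.3, 26.3 and 29.9 CPM, and it fell by 1.13 (standard error 0.06, adjusted p = 7.41e-11). The type I and type II partners therefore fell by unequal amounts. Per length, the KRT8 mean was above that of KRT18 in the LNCaP libraries (182 against 123) and below it in those labelled LNCaP/MUC1-C OE (8.10 against 49.0).

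VIM rose from a high level. It was at 508, 457 and 469 CPM in the LNCaP libraries and at 1265, 1184 and 1182 CPM in those labelled LNCaP/MUC1-C OE, without overlap. The increase was 1.49 on the log2 scale (standard error 0.05, adjusted p = 6.02e-14), which ranked 154 among all increases. ZEB1 was at 40.4, 38.6 and 42.9 CPM against 71.1, 68.4 and 70.9 CPM. ZEB1 rose by 0.94 (standard error 0.06, adjusted p = 3.06e-10). Their antisense partners rose as well, VIM-AS1 by 1.00 (adjusted p = 7.90e-05) and ZEB1-AS1 by 0.87 (adjusted p = 3.36e-04), and since the strand setting of the counting is not known, these cannot be told apart from reads of VIM and ZEB1.

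N-cadherin did not follow VIM. CDH2 was at 119, 121 and 124 CPM in the LNCaP libraries and at 73.6, 73.2 and 68.6 CPM in those labelled LNCaP/MUC1-C OE. All 3 of the latter lay below all 3 of the former, and CDH2 fell by 0.60 on the log2 scale (standard error 0.05, adjusted p = 1.40e-08). Both classical cadherins were therefore lower, and CDH1 by far the more. FN1 was at 111, 107 and 104 CPM against 111, 101 and 106 CPM, so that the groups overlapped on library totals. After TMM normalization FN1 was higher by 0.14 (standard error 0.05, adjusted p = 0.0252) and -0.02 when scaled by library size only (adjusted p = 0.792), a scaling under which the median of all genes was -0.16.

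The other epithelial genes were mostly lower in the libraries labelled LNCaP/MUC1-C OE. Of 23 junction genes tested, 17 fell and 3 rose, with a median log2 fold change of -0.62 against -0.01 over all genes, of which 34.1% fell and 33.2% rose. Low counts in some libraries limit these numbers, and of the 13 with at least 10 counts in every library 8 fell and 2 rose, with a median of -0.20. CLDN1 (-4.31), CLDN7 (-3.45) and TJP3 (-2.72) fell most among those with a mean of at least 1 CPM that the naming rule covered, whereas DSP (0.34), which encodes the desmosomal plaque protein desmoplakin, CTNND1 (0.60) and MARVELD3 (1.84) rose. CTNNB1, the beta-catenin that binds cadherin tails, was at 738 and 721 CPM in the 2 groups and did not pass. Of 15 surface and trafficking genes, 14 fell and 1 rose, with a median of -2.58. SPINT1 fell by 5.30 and MAL2 by 4.89, and the exception was CDS1 (0.19), while no gene of this list was called higher under 8 of 12 alternatives. With at least 10 counts in every library, 7 surface genes were tested and 6 fell, with a median of -1.32. Of 8 regulators, 6 fell, among them EHF (659 counts in the LNCaP group against 1), ESRP2 (98 against 7) and FOXA1 (-2.48), while KLF5 rose by 0.80, and of the 4 with at least 10 counts in every library 2 fell and 1 rose. Of 8 luminal markers, 7 fell, and HOXB13 (33.7 against 31.4 CPM, adjusted p = 0.248) did not pass. By DESeq2, with the replicate block and on leaving out any single library but LNCaP replicate 3, 6 fell, and 8 fell when scaled by library size only. Of the 4 markers with at least 10 counts in every library, 3 fell.

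Of 9 EMT transcription factors tested, 3 rose and 1 fell, beside 33.2% and 34.1% of all genes, so that the share that passed was under the background. SNAI2, which encodes Slug, rose by 5.52 on the log2 scale from 2.17 to 100 CPM, ahead of TWIST1 (0.31) and ZEB2 (0.26), while SNAI1 was at 1.95 and 1.37 CPM and did not pass. When scaled by library size only, 1 rose and 1 fell. Of 26 genes of matrix and cytoskeleton, 5 rose and 13 fell, with a median of -0.12. The share that passed was close to the 67.3% of all genes. SPARC, a matricellular protein, fell by 6.20 from 299 to 3.97 CPM, ACTA2 by 3.21 and the gelatinase MMP2 by 2.96, while the matrix proteins TNC (2.74) and COL3A1 (2.21) rose. Of 17 TGF-beta genes, 5 rose and 8 fell, beside 33.2% and 34.1% of all genes. TGFBR3 (0.98) had the largest increase and LTBP3 (-1.01), TGFBR2 (-0.80) and SKIL (-0.69) the largest decreases. Among the 12 markers of stromal, blood and vessel cells, 5 were tested, 4 of which fell, and their sum was 17.9 to 20.3 CPM in the LNCaP libraries and 7.96 to 11.1 CPM in the others.

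**Figure D5:**
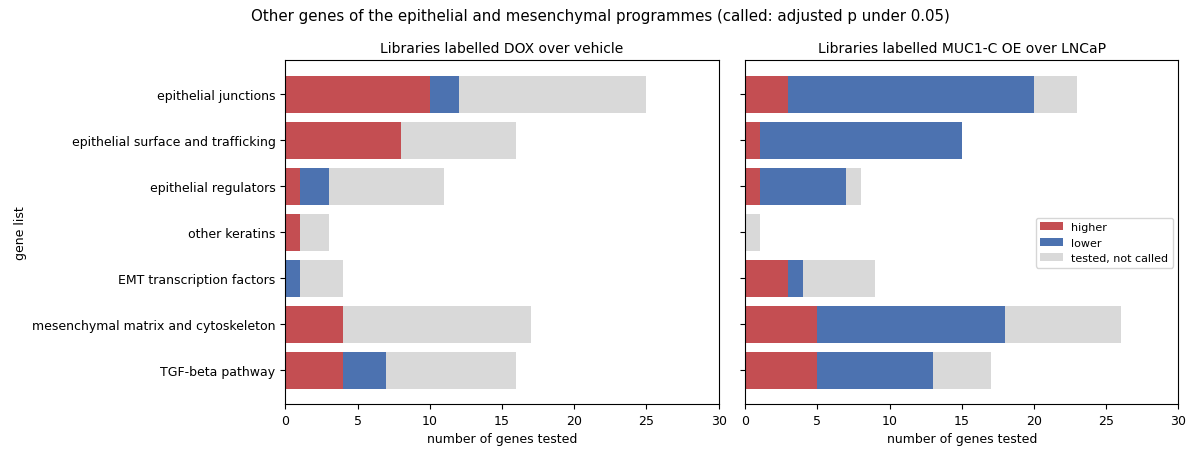
Number of genes of each list that were higher (red), lower (blue) or tested and not called (grey) by edgeR's quasi-likelihood test at an adjusted p under 0.05, in the silencing (left) and overexpression (right) experiments. Junction genes split 10 higher to 2 lower on the left and 3 higher to 17 lower on the right, and matrix genes 4 to 0 and 5 to 13. The background over all genes was 27.3% called on the left and 67.3% on the right.

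Side by side, KRT8 and KRT18 were higher in the libraries labelled DOX (log2 fold changes 1.10 and 0.43) and lower in those labelled LNCaP/MUC1-C OE (-4.28 and -1.13). FN1 was lower in the former (-1.46) and changed little in the latter (0.14). VIM was higher in both (2.63 and 1.49), and ESRP1 was lower in both (-0.87 and -2.40). The silencing calls of KRT18 and ESRP1 were lost under 5 and 7 of 15 alternatives. ESRP1 reached the low-count filter in no library labelled LNCaP/MUC1-C OE, with 10 counts in that group against 71 in LNCaP. The experiments share no library, they start from different levels of these genes, and no test of a difference between the 2 contrasts was made.

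Genes with the most similar pattern over the 12 libraries were found among 11682 genes tested in both experiments, by Pearson's r of log2 CPM. Since libraries of a table lie together, r is given within each experiment, over 6 libraries that form 2 groups, as a description. KRT8 was nearest to TNFRSF10B, a death receptor gene, with r of 0.978 in the silencing and 0.996 in the overexpression experiment. GRHL2 was nearest to SPINT1, an epithelial protease inhibitor gene (0.690 and 0.993), CDH1 to MAOA (0.358 and 0.999), and VIM to RPUSD3 (0.972 and 0.986). FN1 was nearest to NF1 (0.990 and 0.585). Over the 12 libraries, the genes with r above 0.95 numbered from 5 for FN1 to 1422 for ZEB1. They were 120 for KRT8, 809 for GRHL2, 549 for CDH1 and 518 for VIM, so these nearest genes had many close rivals.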

How the data were processed

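The authors made stranded mRNA libraries and deposited counts per gene, as whole numbers without normalization. For the silencing experiment they also deposited TPM, which were used for levels per length and as an alternative. The submitters' processing notes name STAR, DESeq2 and GRCh38/hg38, and the versions, annotation and strand setting are not given in the sources used here. A table of the overexpression experiment held 12 columns of other cell lines, which were not used. Each experiment was fitted alone with edgeR 4.0.16 (R 4.3.3) using the quasi-likelihood test, TMM factors, robust dispersions, the default low-count filter (minimum count 10) and Benjamini-Hochberg adjustment over all genes tested. The whole fit was run on simulated counts with a single dispersion and with changes placed in well-counted genes only. That run does not cover genes near the floor or libraries with more spread. CPM beside a list gene is TMM-normalized, and per-library CPM is scaled to the library total. Intervals and floors cover counting error only, as reads carry no molecular identifiers. Alternatives were DESeq2 1.42.0, other scalings and filters, the replicate number as a block, limma 3.58.1 on log2(TPM + 1), log2(TPM + 0.1) and without the minimum of 1 TPM in 3 libraries, and leaving out each library. Members and lists were chosen with earlier results of these data known. Besides the 10 members, the text names, per list and experiment, up to 3 called genes with the largest increase and 3 with the largest decrease at a mean of at least 1 CPM. In the silencing experiment SLC45A3, ITGAV, PRSS8 and ESRP2, and in the overexpression experiment ESRP2, CTNNB1 and SNAI1, were named after their values were seen. Of the luminal prostate markers, 1 is not reported here.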

Additional observations from a re-analysis of the deposited data

How the results depend on the processing

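Depth limited CDH2 in the silencing experiment and CDH1, EPCAM, ESRP1 and GRHL2 in the libraries labelled LNCaP/MUC1-C OE, which held few or no counts. ZEB1 in the silencing experiment had low counts as well, and the spread between libraries left its sign open. In the silencing experiment, 3 to 6 identity genes and 2002 to 5243 of all genes passed over the 6 fits that each left out a library. The count of identity genes was 3 without vehicle replicate 2 or 3 or DOX replicate 1 or 3, and 6 without the library labelled DOX replicate 2. KRT8, VIM and FN1 passed under all 15 alternatives of this experiment. KRT18 was lost under 5 and ESRP1 under 7, and GRHL2 passed under 6. On log2(TPM + 1), 7 identity genes passed, 6 higher and 1 lower, with the median of all genes at 0.45. Without the TPM minimum, 1399 genes passed. Of the genes that passed, 46.8% were higher with TMM, 59.6% when scaled by library size only and 95.2% on log2(TPM + 1). In the overexpression experiment 49.4% were higher, and 32.3% when scaled by library size only, where the median of all genes was -0.16. With at least 10 counts in every library, 5 identity genes passed, since EPCAM, ESRP1, GRHL2 and CDH1 were no longer tested and FN1 did not pass (0.11, adjusted p = 0.0749). FN1 reversed when scaled by library size only (-0.016, adjusted p = 0.792), and its call was also lost on leaving out 3 single libraries. The cause was not tested. The other 9 identity genes kept their direction and call under each alternative that tested them. Same-numbered libraries did not deviate together (correlations of -0.07 to 0.09 in the silencing and -0.15 to -0.03 in the overexpression experiment), so the numbers did not pair the samples. With the replicate block, 5 identity genes and 4226 of all genes passed in the silencing experiment, and 10 and 8965 in the overexpression experiment.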
